A study of Mus musculus with 15 samples.

Results

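The 8 genes described here were the liver X receptor (LXR) genes Nr1h2 (LXRβ) and Nr1h3 (LXRα) and 6 genes of sterol efflux and lipid handling known as LXR targets, namely Abca1, Abcg1, Apoe, Scarb1, Mylip and Lpcat3. They were chosen by their role in the LXR pathway, with earlier results of these libraries known, and no measured value entered the rule. All 8 had a row among the 26301 gene rows of the count data. The cells were 3T3-L1, a mouse preadipocyte line, on day 2 after the medium was supplemented with insulin, dexamethasone and IBMX. In the knockdown set, cells carrying the empty retroviral vector (sh-Empty) were compared with JMJD1A-KD cells carrying a hairpin against Jmjd1a (sh-Jmjd1a). In the rescue set, the hairpin-carrying cells also expressed either LacZ, which served as the control, or wild-type JMJD1A, named JMJD1A(WT), or the mutant JMJD1A(H1122A), whose iron-coordination site is defective. JMJD1A is a histone H3K9 demethylase, and both JMJD1A constructs carried silent changes that made them resistant to the hairpin. All cells were lines made by retroviral infection and antibiotic selection, the 3 rescue groups expressed their insert on top of the knockdown, and each of the 5 groups had 3 RNA-seq libraries. The groups are separate lines, so the line and its hairpin or insert cannot be told apart in any comparison. The sources do not say whether the libraries of a group came from separate cultures, so the p-values measure only the spread between these libraries, which may be technical.

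Total counts per library ranged from 11437058 to 25523148 with a median of 12916162, JMJD1A(WT) replicate 3 being the deepest. Levels are given in CPM, counts scaled to a common library total by the TMM method over all 15 libraries. Fold changes are on the log2 scale, and adjusted p-values are those of the quasi-likelihood test of edgeR, adjusted by the Benjamini-Hochberg method over all genes tested. A gene was called when its adjusted p was under 0.05. Kdm3a, the gene of JMJD1A, had a mean of 174 ± 7.36 CPM (SD, n = 3) with the empty vector and of 131 ± 5.75 CPM with the hairpin. Its transcript was therefore at 75.2% of the control level in the knockdown, with a log2 fold change of -0.42 (SE 0.0484, adjusted p = 2.91e-08). It was at 119 ± 2.67 CPM with LacZ, 1697 ± 69.0 CPM with JMJD1A(WT) and 2213 ± 90.1 CPM with JMJD1A(H1122A), levels that include reads of the constructs. The mutant was above JMJD1A(WT) in Kdm3a by 0.38 (SE 0.0345, adjusted p = 3.94e-12). That comparison therefore differs in transcript level as well as in the mutation.

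LXRα and LXRβ are nuclear receptors that are switched on by oxysterols, the oxidised derivatives that accumulate when a cell holds excess cholesterol. They bind DNA as partners of retinoid X receptors, at a short motif repeated in the same direction, and raise genes that move cholesterol out of the cell. LXRα is enriched in liver, macrophages and adipose tissue and rises as fat cells form, whereas LXRβ is present in nearly all tissues.

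Promoters of the members are given as a description of their sequence, and no link between them and the expression values was tested. The RefSeq promoter windows of assembly GRCm38.p6, which run from 250 bases before to 50 bases after an annotated start, held an entry for 6 of the 8 members (all but Abcg1 and Scarb1). Each window was searched on both strands for the direct repeat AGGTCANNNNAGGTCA, in which N stands for any base, and the closest match was taken, or 1 of them where the starts of a gene had equally close ones. The closest stretches are given below on the strand of the motif, with capitals marking letters identical to the 12 fixed letters of the repeat.
Abca1: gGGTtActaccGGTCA
Nr1h3: AGGTCccggcAcGgCc
Nr1h2: AGtTCcggaaAGtTCt
Lpcat3: AGGTaggaagAGGgCg
Apoe: cctTCAcagcAGGgCA
Mylip: AGtTCccgggAGcTac
The Abca1 stretch lay at position -67 relative to the start, on the strand opposite to the gene, and differed from the repeat at 3 of the fixed letters. Of the 32851 promoter windows of this length, 21.9% held a match at least as close. The closest stretches of Nr1h3, Nr1h2, Lpcat3 and Apoe differed at 4 letters, a distance that 76.9% of all windows reached, and that of Mylip at 5 letters, which 99.8% reached. Among the windows searched for the members, only that of Abca1 therefore held a match that most promoters lacked. Bases outside these windows were not searched, so sites elsewhere in or near the genes would not have been found. No window of a member held the single unit AGGTCA of the repeat on either strand, which 16.3% of all windows held. The 250 bases before the Abca1 and the Nr1h3 start, at chr4:53159896-53160145 and chr2:91195117-91195366 of GRCm38.p6 on the minus strand, read as follows on the gene's own strand, with capitals marking the same stretch.
Abca1 promoter: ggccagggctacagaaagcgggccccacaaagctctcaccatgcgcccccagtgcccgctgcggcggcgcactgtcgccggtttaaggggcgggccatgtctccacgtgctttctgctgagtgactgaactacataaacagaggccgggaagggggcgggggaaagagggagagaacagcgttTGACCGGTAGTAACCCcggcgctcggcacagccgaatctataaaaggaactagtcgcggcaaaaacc
Nr1h3 promoter: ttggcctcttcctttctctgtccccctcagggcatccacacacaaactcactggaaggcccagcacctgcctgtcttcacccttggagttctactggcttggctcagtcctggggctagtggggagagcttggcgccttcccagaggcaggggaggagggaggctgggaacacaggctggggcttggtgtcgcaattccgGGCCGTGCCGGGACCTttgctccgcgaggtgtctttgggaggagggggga
A match is a description of the letters and no evidence that a receptor was bound there.

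On knockdown of JMJD1A, 6 of the 8 genes fell and none rose. Nr1h3, Abcg1 and Scarb1 lost more than Lpcat3, Apoe and Nr1h2, while Abca1 and Mylip did not pass the test. Of the 12272 genes tested in this comparison, 23.9% were called lower and 22.3% higher. The median log2 fold change of the 8 genes was -0.77, against -0.0032 over all genes tested. With JMJD1A(WT) against LacZ, 5 of the 8 rose and none fell, where 4.98% of 12557 genes were called higher and 4.52% lower. Those 5 were Nr1h3, Abca1, Abcg1, Scarb1 and Lpcat3. The count includes Abcg1, which entered the rescue fit only through its high JMJD1A(WT) libraries, and it was 4 with at least 10 counts required in every library, which leaves Abcg1 out. It was 3 without LacZ replicate 1, LacZ replicate 3 or JMJD1A(WT) replicate 2. When the mutant was set against JMJD1A(WT), the same 5 genes fell and none rose, where 11.7% of genes were called lower and 12.1% higher, and again 4 fell when Abcg1 was left out in this way. At an unadjusted p under 0.05 edgeR likewise put 0 of the 8 in the opposite direction in each of these 3 comparisons, and DESeq2 called 6, 4 and 5 genes. The comparisons within the rescue set share libraries, so a gene that is high with JMJD1A(WT) tends to appear in both. Nr1h3, Scarb1 and Lpcat3 were lower on knockdown, higher with JMJD1A(WT) than LacZ and lower with the mutant than with JMJD1A(WT), a combination that 2.43% of the 12202 genes tested in both sets met. Abcg1 met it too, within the limit just given. The study selected genes of its own by these comparisons of these libraries, so meeting all 3 is not independent evidence for any gene. Nr1h3 and Scarb1 are also on a gene list that the study drew up partly from these libraries, so their direction is not independent evidence. Because the members were named with results known, their counts describe these 8 genes and support no statement about LXR targets in general.

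**Figure D1:**
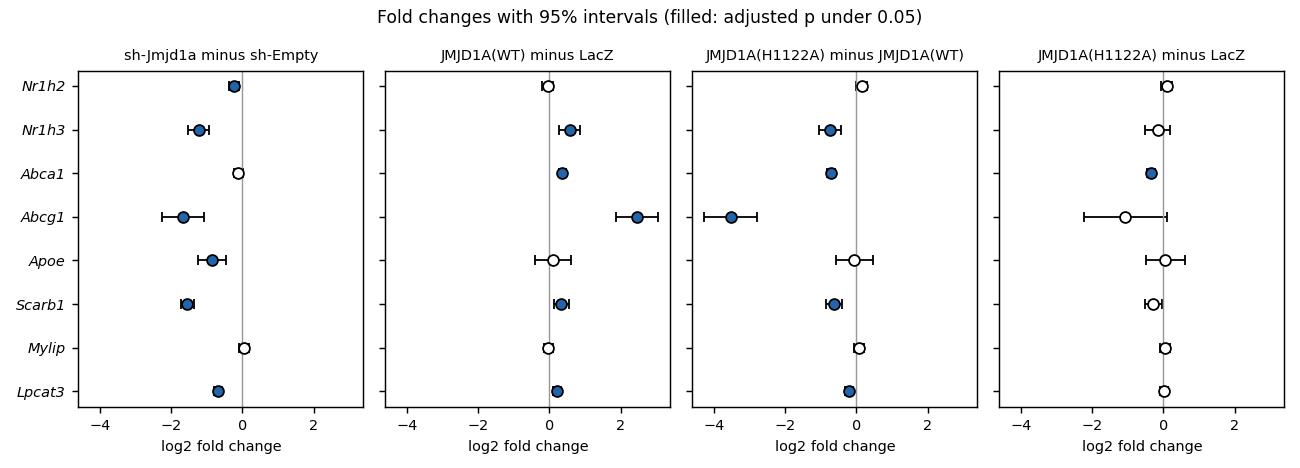
Log2 fold change of each of the 8 genes (x axis) in the 4 comparisons made within a set, with 95% intervals; filled points passed an adjusted p of 0.05. Of the 8 genes, 6 were called lower on knockdown and 5 were called higher with JMJD1A(WT) against LacZ. Those 5 were called lower with the mutant against JMJD1A(WT), a comparison that shares the JMJD1A(WT) libraries. Abcg1 is among the 5 but entered the rescue fit only through its high JMJD1A(WT) libraries, so its rescue values are a description. With the mutant against LacZ, Abca1 alone among the 8 was called, as lower.

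All 8 genes passed the filter on low counts in both sets. Abcg1 passed in the rescue set through the JMJD1A(WT) libraries, since 2 of 3 LacZ libraries and 0 of 3 mutant libraries reached the filter's minimum of 0.721 CPM, so a gene like it could enter the test only by being high in that group. Levels per kilobase of annotated exon compare genes only roughly, since the lengths join the exons of all annotated transcripts of a gene. In sh-Empty cells these levels ran from 37.5 CPM per kb for Lpcat3 through 15.8 for Nr1h2, 15.6 for Mylip, 10.98 for Abca1, 7.54 for Scarb1, 6.30 for Nr1h3 and 3.56 for Apoe to 1.01 for Abcg1.

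**Figure D2:**
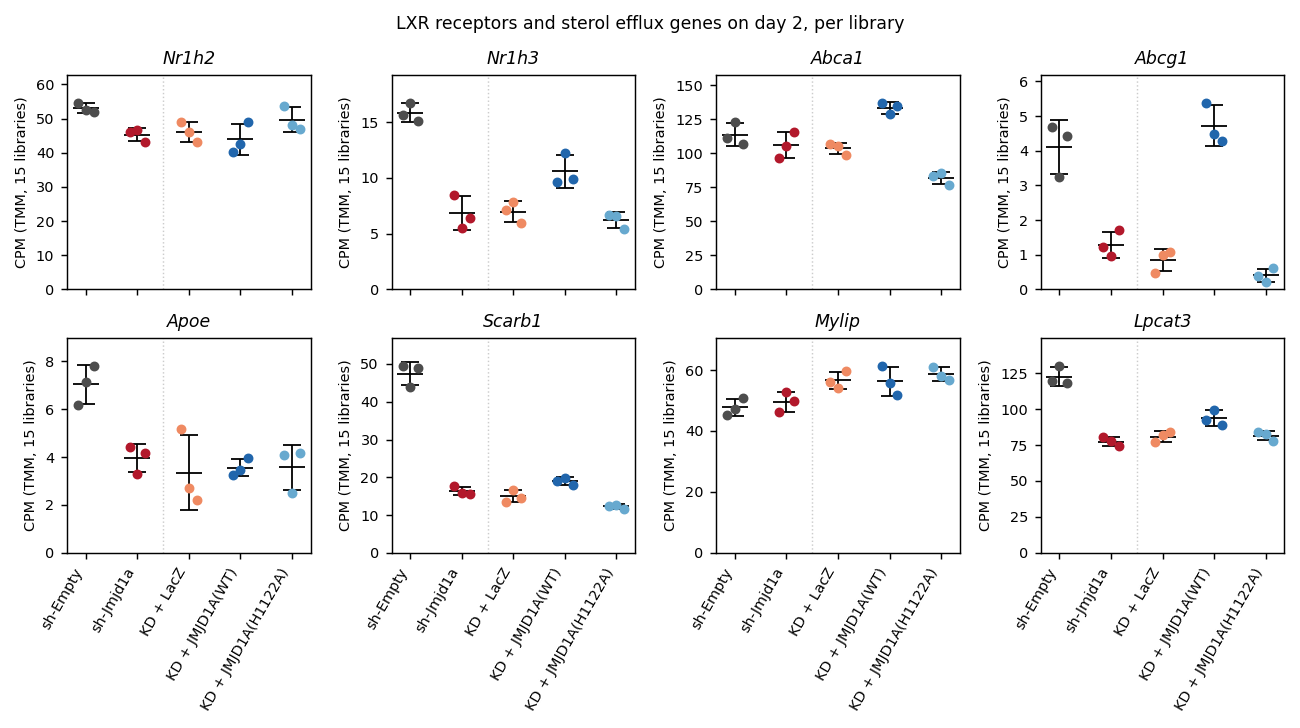
CPM of each gene (y axis, from 0) in every library of the 5 groups, with the mean and SD of 3 libraries in black; KD marks hairpin-carrying cells of the rescue set and the dotted line separates the sets. Nr1h3, Scarb1 and Lpcat3 were highest in sh-Empty cells, Abca1 was highest with JMJD1A(WT), Abcg1 was high in both of these groups, and Mylip showed overlapping neighbours throughout.

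Nr1h3, the gene of LXRα, lies on chromosome 2 (91024218 to 91042991, minus strand, NCBIM37). Its level was 15.7, 16.8 and 15.1 CPM in the sh-Empty libraries and 8.50, 5.54 and 6.42 CPM in the sh-Jmjd1a libraries, so the groups did not overlap. The fold change on knockdown was -1.23 (SE 0.144, adjusted p = 4.65e-08). In the rescue set it was at 7.16, 7.82 and 5.97 CPM with LacZ, 9.60, 12.3 and 9.90 CPM with JMJD1A(WT), and 6.70, 6.60 and 5.45 CPM with JMJD1A(H1122A). Each JMJD1A(WT) library was above every LacZ and mutant library, while LacZ and mutant libraries overlapped. JMJD1A(WT) exceeded LacZ by a log2 difference of 0.58 (SE 0.147, adjusted p = 0.00609), and the mutant lay below JMJD1A(WT) with -0.74 (SE 0.156, adjusted p = 0.000322). Without LacZ replicate 3 the first of these no longer passed (0.48, adjusted p = 0.0682). The mutant did not differ detectably from LacZ (-0.16, 95% interval -0.51 to 0.20). In the order of levels, sh-Empty (mean 15.8 ± 0.850 CPM over 3 libraries) stood above JMJD1A(WT) (10.6 ± 1.47), and the remaining 3 groups, between 6.25 and 6.98 CPM on average, overlapped. Nr1h3 shares 34 exon bases, 1.35% of its exon length, with Gm13783 on the same strand.

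Nr1h2, the gene of LXRβ on chromosome 7 (51804986 to 51809321, minus strand), varied far less. It was at 54.7, 52.4 and 52.0 CPM in sh-Empty libraries and 46.1, 46.7 and 43.1 CPM in sh-Jmjd1a libraries. The drop, with no overlap, was small but passed the test, at -0.24 (SE 0.0669, adjusted p = 0.00445). In the rescue set it ranged from 43.01 to 49.07 CPM with LacZ, from 40.3 to 48.9 CPM with JMJD1A(WT) and from 47.04 to 53.76 CPM with the mutant, and no comparison passed the test. The mutant against JMJD1A(WT) gave 0.15 (adjusted p = 0.155), which passed when JMJD1A(WT) replicate 3, the deepest library, was left out (0.26, adjusted p = 0.0228). Every neighbouring pair of groups overlapped in the order of Nr1h2 levels.

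The share of LXRα among the receptor transcripts was lower in sh-Jmjd1a, LacZ and mutant cells than in the other groups. Per length, Nr1h3 stood to Nr1h2 as 0.383, 0.428 and 0.389 in the sh-Empty libraries, and as 0.247, 0.159 and 0.199 in the sh-Jmjd1a libraries. The ratios were 0.195, 0.227 and 0.186 with LacZ, 0.319, 0.387 and 0.271 with JMJD1A(WT), and 0.167, 0.184 and 0.155 with JMJD1A(H1122A). Per length, LXRβ transcripts thus outnumbered LXRα transcripts in all 15 libraries, and the size of the ratio depends on the annotated lengths. The mean ratio was 0.400 ± 0.0244 (SD over 3 libraries) in sh-Empty cells and 0.202 ± 0.0438 in sh-Jmjd1a cells, and it was 0.325 ± 0.0582 with JMJD1A(WT) against 0.203 ± 0.0215 with LacZ and 0.169 ± 0.0147 with the mutant. Both differences, and that between mutant and JMJD1A(WT), separated the groups without overlap, as did the smaller one between mutant and LacZ. A two-sided exact permutation test gave p = 0.1 for each of these 4, the smallest p that 3 against 3 libraries allow, and 0.15 after adjustment over the 6 comparisons made. JMJD1A(WT) and sh-Empty libraries overlapped (exact permutation p = 0.2, adjusted 0.24), as did LacZ and sh-Jmjd1a libraries (exact permutation p = 1.0).

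**Figure D3:**
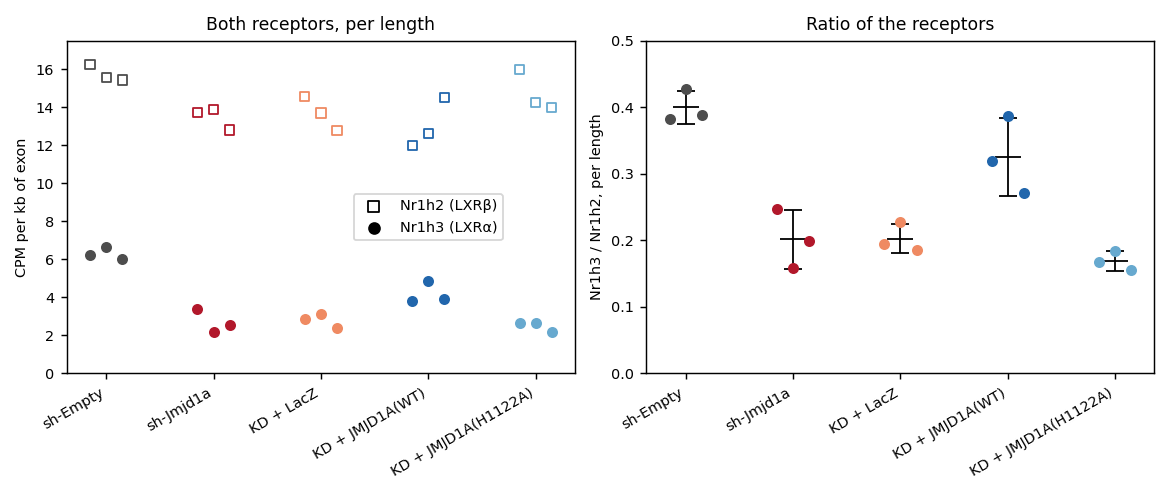
Left, CPM per kb of exon of Nr1h2 (open squares) and Nr1h3 (filled circles) in every library; right, the ratio of Nr1h3 to Nr1h2 per library with mean and SD of 3 libraries. Nr1h2 stays well above Nr1h3 in all libraries, and the ratio is lowest, at 0.155 to 0.247, in the sh-Jmjd1a, LacZ and mutant libraries.

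Abca1 and Abcg1 encode the transporters that hand cholesterol to lipid-poor apolipoprotein A-I and to HDL particles, and both are textbook LXR targets. Abca1, whose promoter is printed above, lies on chromosome 4 (53043659 to 53172767, minus strand, NCBIM37). It was at 111, 123 and 107 CPM in the sh-Empty libraries and 96.9, 105 and 116 CPM in the sh-Jmjd1a libraries. These groups overlapped and the knockdown did not pass the test (-0.11, 95% interval -0.24 to 0.02, adjusted p = 0.153). Without sh-Jmjd1a replicate 3, the highest of its group, it passed (-0.17, adjusted p = 0.00899). In the rescue set Abca1 was at 107, 105 and 98.7 CPM with LacZ, 137, 129 and 134 CPM with JMJD1A(WT), and 83.6, 85.2 and 76.9 CPM with JMJD1A(H1122A). The 3 groups were fully separated, with the mutant below LacZ. JMJD1A(WT) was above LacZ by 0.37 on the log2 scale (SE 0.0499, adjusted p = 3.45e-07), and the mutant was below JMJD1A(WT) with -0.71 (SE 0.0523, adjusted p = 5.99e-15). The mutant was also below LacZ, with -0.34 (SE 0.0543, adjusted p = 1.32e-05). JMJD1A(WT) libraries exceeded the sh-Empty libraries, whose mean was 114 ± 8.44 CPM against 134 ± 4.36 CPM (SD, n = 3).

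Abcg1, on chromosome 17 (31194643 to 31252722, plus strand, NCBIM37), had few reads, between 3 and 110 counts per library, and showed the widest span of the 8 genes. It was at 54, 38 and 69 counts (4.69, 3.23 and 4.41 CPM) in sh-Empty libraries and 14, 12 and 22 counts (1.21, 0.964 and 1.70 CPM) in sh-Jmjd1a libraries. It was lower in sh-Jmjd1a cells without overlap, with a log2 fold change of -1.67 (SE 0.289, adjusted p = 2.20e-05). It had 7, 14 and 15 counts (0.469 to 1.07 CPM) with LacZ, 73, 57 and 110 counts (4.29 to 5.39 CPM) with JMJD1A(WT), and 5, 3 and 7 counts (0.220 to 0.605 CPM) with JMJD1A(H1122A). JMJD1A(WT) libraries stood apart from both others, and overlapped the sh-Empty libraries. The fitted difference was 2.46 (SE 0.296) between JMJD1A(WT) and LacZ and -3.52 (SE 0.368) between the mutant and JMJD1A(WT). Both are given as a description, since 3 of 3 JMJD1A(WT) libraries but 2 of 3 LacZ and 0 of 3 mutant libraries reached the filter's minimum, and the gene entered the fit through the group where it was high. The mutant and LacZ libraries overlapped, and their difference of -1.07 was not resolved at this depth (95% interval -2.22 to 0.09, adjusted p = 0.284).

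Apoe encodes apolipoprotein E, a cholesterol acceptor secreted by fat cells and macrophages, and Scarb1 encodes SR-BI, the HDL receptor that exchanges cholesteryl ester and free cholesterol with the particle. Apoe, on chromosome 7 (20281458 to 20284515, minus strand), was low, at 6.17, 7.15 and 7.81 CPM in sh-Empty libraries and 4.42, 3.29 and 4.18 CPM in sh-Jmjd1a libraries. The groups did not overlap, and the fold change was -0.86 (SE 0.190, adjusted p = 0.00047). With LacZ it was at 5.155, 2.70 and 2.204 CPM, with JMJD1A(WT) at 3.25, 3.46 and 3.97 CPM, and with JMJD1A(H1122A) at 4.099, 2.495 and 4.151 CPM. All rescue groups overlapped, and JMJD1A(WT) against LacZ gave 0.11 (95% interval -0.39 to 0.61, adjusted p = 0.865). LacZ replicate 1 was the highest library of the rescue set, and without it the difference was 0.57, which also did not pass (adjusted p = 0.227). Apoe was therefore lower on knockdown, and no return with JMJD1A(WT) was detectable at 31 to 102 counts per rescue library.

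Scarb1, on chromosome 5 (125757457 to 125821464, minus strand), was at 49.5, 43.9 and 48.9 CPM in sh-Empty libraries and 17.6, 15.9 and 15.7 CPM in sh-Jmjd1a libraries, a log2 fold change of -1.55 (SE 0.0872, adjusted p = 1.25e-14). It was at 13.5, 16.6 and 14.6 CPM with LacZ, 19.1, 19.9 and 18 CPM with JMJD1A(WT), and 12.4, 12.8 and 11.7 CPM with JMJD1A(H1122A). The JMJD1A(WT) libraries lay above all other hairpin-carrying libraries, yet at 40.1% of the sh-Empty mean. JMJD1A(WT) against LacZ gave 0.34 (SE 0.105, adjusted p = 0.0313). This call was lost without LacZ replicate 1 (0.26, adjusted p = 0.175), LacZ replicate 3 (0.32, adjusted p = 0.102), JMJD1A(WT) replicate 1 (0.33, adjusted p = 0.0849) or JMJD1A(WT) replicate 2 (0.31, adjusted p = 0.0857), and with DESeq2 (0.34, adjusted p = 0.0571). The mutant was below JMJD1A(WT) with -0.61 (SE 0.113, adjusted p = 3.73e-05). Against LacZ the mutant libraries were lower without overlap, but the difference of -0.28 did not pass the test (adjusted p = 0.163).

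Lpcat3 encodes the acyltransferase that places polyunsaturated acyl chains into membrane phosphatidylcholine, and Mylip encodes IDOL, a ubiquitin ligase that limits lipoprotein uptake. Lpcat3, on chromosome 6 (124613045 to 124654436, plus strand), was at 119, 130 and 118 CPM in sh-Empty libraries and 80.4, 77.5 and 74.4 CPM in sh-Jmjd1a libraries, a fold change of -0.67 (SE 0.0550, adjusted p = 3.87e-11). With LacZ it was at 76.8, 81.7 and 84.1 CPM, with JMJD1A(WT) at 92.5, 99.7 and 88.7 CPM, and with JMJD1A(H1122A) at 84.3, 82.6 and 78.0 CPM. As for Nr1h3, sh-Empty cells stood above JMJD1A(WT) and JMJD1A(WT) above the overlapping rest. JMJD1A(WT) exceeded LacZ by 0.20 on the log2 scale (SE 0.0551, adjusted p = 0.01), a call lost without LacZ replicate 1 (0.16, adjusted p = 0.0799) or JMJD1A(WT) replicate 2 (0.16, adjusted p = 0.0721). The mutant was below JMJD1A(WT) with -0.19 (SE 0.0561, adjusted p = 0.00842), a call lost without mutant replicate 3 (-0.16, adjusted p = 0.0607) or JMJD1A(WT) replicate 2 (-0.15, adjusted p = 0.0589). Lpcat3 shares 38 exon bases, 1.16% of its exon length, with Emg1 on the other strand, and the strand setting of the counting is not given in the sources used here.

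Mylip, on chromosome 13 (45485111 to 45507388, plus strand), was the member with the fewest calls. It was at 45.3, 47.2 and 50.9 CPM in sh-Empty libraries and 46.3, 52.9 and 49.8 CPM in sh-Jmjd1a libraries, and these overlapped (0.04, 95% interval -0.10 to 0.19, adjusted p = 0.68). In the rescue set it ranged from 54.2 to 59.7 CPM with LacZ, from 51.7 to 61.3 CPM with JMJD1A(WT) and from 56.8 to 61.1 CPM with the mutant. No comparison within a set passed for Mylip, and the 95% intervals of the 3 comparisons in the rescue set lay between -0.16 and 0.20 on the log2 scale.

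The mutant was also set against LacZ. As in every other comparison here, these are separate lines, so a difference between them cannot be assigned to the mutant protein alone. Of the 8 genes, 1 fell, Abca1, and none rose, where 4.46% of all genes were called lower and 4.78% higher. At an unadjusted p under 0.05 edgeR gave 2 lower and 0 higher, and DESeq2 called 1 lower and 0 higher. A pair of comparisons cross the sets and came from a fit of all 15 libraries, in which set and group cannot be told apart. LacZ-carrying knockdown cells against sh-Jmjd1a cells gave no call among the 8 genes by edgeR or by DESeq2, and 1 higher gene at an unadjusted p under 0.05, where 3.36% of 12758 genes were called lower and 3.62% higher. The difference nearest to a call was that of Mylip, 0.19 (adjusted p = 0.0994). JMJD1A(WT) against sh-Empty cells gave 5 lower and 2 higher genes, where 22.8% of all genes were called in either direction alone. Scarb1 remained lower by -1.34 (SE 0.0818, adjusted p = 8.71e-19), Apoe by -0.96 (SE 0.204, adjusted p = 0.000112), Nr1h3 by -0.60 (SE 0.124, adjusted p = 8.20e-05), Lpcat3 by -0.39 (SE 0.0530, adjusted p = 2.28e-08) and Nr1h2 by -0.25 (SE 0.0711, adjusted p = 0.00344). Abca1 was higher by 0.23 (SE 0.0548, adjusted p = 0.00039) and Mylip by 0.22 (SE 0.0686, adjusted p = 0.00834). The Mylip call was lost without sh-Empty replicate 1 (0.18, adjusted p = 0.0601) or JMJD1A(WT) replicate 1 (0.15, adjusted p = 0.0863). Abcg1 gave 0.16, with an interval of -0.24 to 0.57. The genes called lower on knockdown thus differed in how near their JMJD1A(WT) mean came to the sh-Empty mean. It was at 40.1% for Scarb1, 50.6% for Apoe, 66.9% for Nr1h3, 76.4% for Lpcat3, 82.8% for Nr1h2 and 115% for Abcg1. Abca1, at 117%, and Mylip, at 118%, had no called drop on knockdown to return from.

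The 8 adipocyte markers (Adipoq, Fabp4, Plin1, Cebpa, Pparg, Lipe, Cfd and Cidec) were lower on knockdown in 8 of 8 cases, against 23.9% of all genes. They were higher with JMJD1A(WT) than LacZ in 8 of 8, against 4.98%, and lower with the mutant than with JMJD1A(WT) in 8 of 8, against 11.7%. They were also lower with the mutant than with LacZ in 7 of 8, where 1 of the 8 members and 4.46% of all genes fell. In 5 of 8 they were higher in LacZ-carrying than in sh-Jmjd1a cells, where no member was called and 3.62% of all genes were higher. Their summed level was 1498 to 1561 CPM in sh-Empty libraries, 422 to 469 CPM in sh-Jmjd1a libraries, 527 to 559 CPM with LacZ, 975 to 1086 CPM with JMJD1A(WT) and 300.3 to 320.2 CPM with the mutant. Fabp4, Pparg, Lipe and Cidec among them are on the study's own list, a subset of the genes it selected by the same 3 comparisons of these libraries. Cebpa is also among the genes selected in that way. The direction of these markers in the 3 comparisons was therefore set by their selection and is not independent evidence. Of the 8 preadipocyte and fibroblast markers, 5 rose and 1 (Dlk1) fell on knockdown, against 22.3% and 23.9% of all genes. Dlk1 is on the study's list too, so its direction is not independent evidence either. With JMJD1A(WT) against LacZ 4 rose and none fell, against 4.98% and 4.52%. With the mutant against JMJD1A(WT) 2 rose and 3 fell, against 12.1% and 11.7%. Their summed level, mostly that of Col3a1 and Col1a1, was 7518 to 7642 CPM in sh-Empty libraries and 12790 to 13500 CPM in sh-Jmjd1a libraries. It was 15770 to 16020 CPM with LacZ, 16690 to 17360 CPM with JMJD1A(WT) and 15210 to 16000 CPM with the mutant. The part of these shifts in the values of the 8 genes was not tested, and in bulk RNA fewer cells of a type and less RNA per cell cannot be told apart. Macrophage markers, of interest because macrophages express Apoe, Abca1 and Abcg1 strongly, summed to 2.35 to 5.56 CPM per library over 8 genes. Adgre1, Ptprc and Mrc1 were at 0 in all libraries of at least 1 group. Cd68 and Cd14 passed the filter, with group means of 1.1 to 2.2 CPM and 1.48 to 2.32 CPM, and neither was called. These levels lie within the range of Abcg1, and their part in the values of the members was not tested. Endothelial markers summed to at most 1.57 CPM over 6 genes and myogenic markers to at most 0.472 CPM over 6 genes, with Myod1, Myog, Myf5 and Ckm at 0 in every library.

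The genes whose pattern over the 5 groups was most like each member were found by the smallest root mean square difference between the group means of log2 CPM, each gene's own mean removed, among 12758 genes. For Lpcat3 the nearest was Srebf1, the gene of the lipogenic regulator SREBP-1, at 0.0071, followed by Dhx37 and Gm1673. Nr1h3 was most like Ermp1 (0.0593), S100a1 and Fam117a, and Scarb1 most like Igfbp6 (0.0477), Tcn2 and Nova1. Abca1 was most like Syn1 (0.035), Arhgap22 and Adamts9, and Abcg1, which spans 3.20 log2 units between groups, most like Actn3 (0.29), 1600025M17Rik and Wfdc12. Apoe was nearest to Sh3glb2 (0.0707), Knop1 and Mpc2. Nr1h2 (nearest Ccdc28b, Psmc1 and Swi5) and Mylip (nearest Zfp169, Parp4 and Uaca) span only 0.276 and 0.295 log2 units between groups. They were matched within 0.0181, a small distance that goes with so narrow a span. None of the 8 members was among the 3 nearest genes of another, which says little, since only 3 of 12758 genes were taken for each. Srebf1, Fam117a and Actn3 are on the study's list, which was drawn partly from these libraries. These neighbours depend on the measure, since only 1 of the 24 was also among the 3 genes with the highest Pearson correlation over the 15 libraries.

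**Figure D4:**
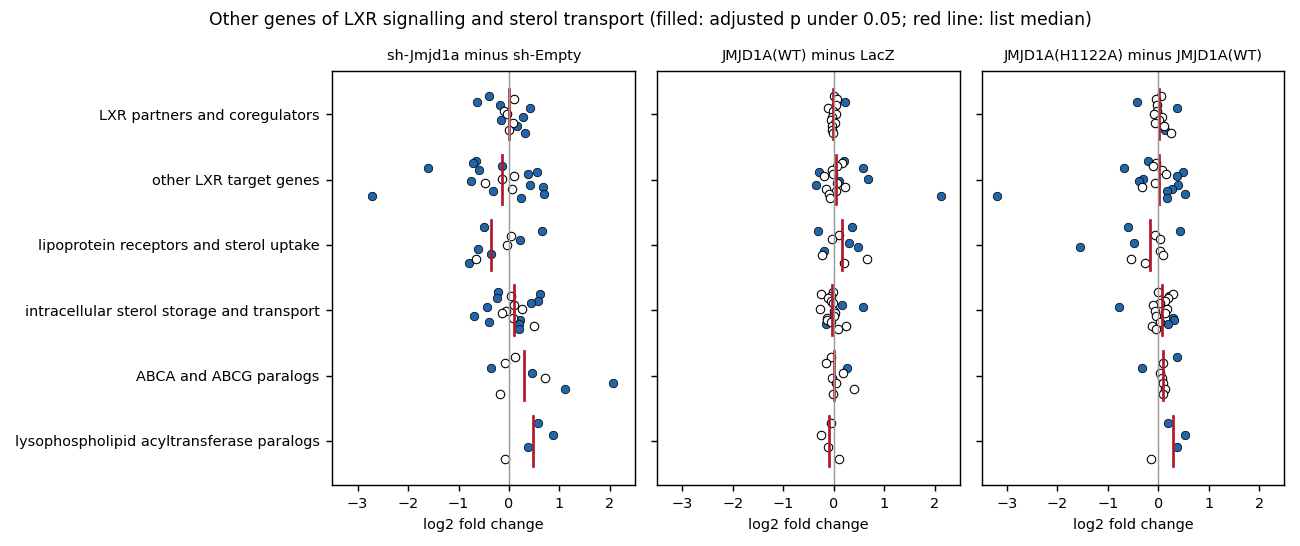
Log2 fold change (x axis) of the genes tested in 6 lists of LXR signalling and sterol transport that exclude the 8 members, in 3 comparisons; filled points passed an adjusted p of 0.05 and red lines are list medians. Each list holds genes on both sides of 0 on knockdown. Slc2a4, in the list of other LXR targets, entered both fits only through the group where it was high.

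Other genes of the pathway were mixed in direction. Among partners and coregulators of the receptors, 4 of 13 tested genes fell and 4 rose on knockdown, against 23.9% and 22.3% of all genes. Rxra, the retinoid X receptor partner, averaged 666 ± 11.5 CPM (SD, n = 3) with the empty vector and fell with -0.41 (SE 0.0367, adjusted p = 3.28e-10), and the coactivator genes Ncoa1 (-0.63, SE 0.0557, adjusted p = 2.01e-10) and Ncoa3 (0.41, SE 0.0623, adjusted p = 3.39e-06) moved in opposite directions. Ncoa1 alone in this list was also higher with JMJD1A(WT) than LacZ (0.22) and lower with the mutant than with JMJD1A(WT) (-0.42). With JMJD1A(WT) against LacZ, 1 of the 13 rose and none fell, against 4.98% and 4.52% of all genes. Rxrg, Nr0b2, Nr1h4 and Nr1h5 did not pass the filter.

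Of 18 tested further LXR targets, 8 fell and 6 rose on knockdown, against 23.9% and 22.3% of all genes. With JMJD1A(WT) against LacZ 5 rose and 2 fell, against 4.98% and 4.52%, and with the mutant against JMJD1A(WT) 5 fell and 7 rose, against 11.7% and 12.1%. Among the genes in the counts of 8, 5 and 5 was Slc2a4, the gene of the insulin-responsive glucose transporter. It entered the fits only through the sh-Empty and JMJD1A(WT) libraries, all other libraries of its set lying under the filter's minimum of 0.833 or 0.721 CPM, so its values are a description. Slc2a4 was at 1.47 ± 0.0818 CPM in sh-Empty cells and 0.222 ± 0.136 CPM on knockdown, and at 0.394 ± 0.107 CPM with LacZ, 2.02 ± 1.11 CPM with JMJD1A(WT) and 0.186 ± 0.252 CPM with the mutant. Scd1, the stearoyl-CoA desaturase, was at 569 ± 10.6 CPM in sh-Empty cells and 188 ± 6.88 CPM on knockdown (-1.61, SE 0.0415, adjusted p = 2.96e-22), and the lipoprotein lipase gene Lpl fell with -0.74 (SE 0.0328, adjusted p = 5.10e-17). Scd1, Lpl and Srebf1 (-0.66, SE 0.0454, adjusted p = 1.10e-12) were called in the same 3 directions as Nr1h3. Elovl5, a fatty acid elongase gene, and Arl4c, a small GTPase gene, ran the other way in all 3 comparisons, with 0.56, -0.29 and 0.49 for Elovl5 and 0.41, -0.36 and 0.40 for Arl4c. Mlxipl, Abcg5, Abcg8, Smpdl3a, Apoc1, Apoc2, Apoc4 and Cyp7a1 did not pass the filter. Scd1 and Srebf1 are on the study's list. Unlike Nr1h3, Lpl was also higher in LacZ-carrying than in sh-Jmjd1a cells (0.32, adjusted p = 7.48e-10). It was lower with the mutant than with LacZ as well (-0.27, adjusted p = 4.91e-08).

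Of 9 tested lipoprotein receptor and sterol uptake genes, 4 fell and 2 rose on knockdown, against 23.9% and 22.3% of all genes. The scavenger receptor gene Cd36 fell with -0.61 (SE 0.0725, adjusted p = 5.20e-08) and was called in the same 3 directions as Nr1h3. Vldlr, the gene of the VLDL receptor, was the reverse, with 0.66 on knockdown (SE 0.0438, adjusted p = 4.66e-13), -0.31 with JMJD1A(WT) and 0.43 with the mutant. Unlike Nr1h3, Cd36 was also higher in LacZ-carrying than in sh-Jmjd1a cells (0.96, adjusted p = 7.31e-14). It was lower with the mutant than with LacZ as well (-1.06, adjusted p = 4.30e-15). Pdzk1, the adaptor that holds SR-BI at the membrane, fell with -0.79 (SE 0.227, adjusted p = 0.0051) and did not pass in the rescue comparisons. Npc1l1 did not pass the filter on knockdown and was not called in the rescue comparisons.

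Among 18 genes of intracellular sterol storage and transport, 5 fell and 6 rose on knockdown, against 23.9% and 22.3% of all genes. Osbpl2, an oxysterol-binding protein homologue, fell (-0.70, SE 0.0712, adjusted p = 3.27e-09), whereas the cholesteryl ester hydrolase gene Nceh1 (0.61, SE 0.129, adjusted p = 0.000282) and the sterol carrier gene Stard4 (0.58, SE 0.0894, adjusted p = 5.47e-06) rose. None of these 3 was called with JMJD1A(WT) against LacZ. Gramd1b, which carries plasma membrane cholesterol to the endoplasmic reticulum and is on the study's list, followed Nr1h3 in all 3 directions (-0.43, 0.57 and -0.78), and the caveolin gene Cav1 ran the other way (0.19, -0.16 and 0.19). Soat2 and Apoa1 did not pass the filter.

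Of 8 tested ABCA and ABCG paralogs, relatives of the transporters, 3 rose and 1 fell on knockdown, against 22.3% and 23.9% of all genes. Abca8b rose from 6.59 ± 1.16 to 27.5 ± 3.68 CPM (2.06, SE 0.133, adjusted p = 2.80e-13), Abca9 with 1.11 (SE 0.219, adjusted p = 0.000122) and Abca7 with 0.45 (SE 0.0712, adjusted p = 5.89e-06), and none of the 3 was called in a comparison within the rescue set. Abca5 fell with -0.36 (SE 0.0835, adjusted p = 0.000751) and was the one paralog called in the same 3 directions as Nr1h3. Abca4, Abca6, Abca12, Abca13 and Abcg3 did not pass the filter. Of 4 tested lysophospholipid acyltransferase paralogs of Lpcat3, 3 rose and none fell, against the same shares. Lpcat2 rose with 0.86 (SE 0.133, adjusted p = 4.17e-06), Lpcat1 with 0.58 (SE 0.0732, adjusted p = 1.60e-07) and Lpcat4 with 0.38 (SE 0.113, adjusted p = 0.00602), where Lpcat3 itself fell. All 3 were also higher with the mutant than with JMJD1A(WT), against 12.1% of all genes, and none was called with JMJD1A(WT) against LacZ. Mboat1 and Mboat2 did not pass the filter.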

How the data were processed

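RNA-seq counts of 15 libraries in 5 groups were used. The authors deposited raw counts per gene by Entrez Gene number, made with fastp, HISAT2 on mm9 and featureCounts. The labels name a NEBNext Ultra kit and the paper a directional kit, and the strand setting is not given in the sources used here. Symbols came from a RefSeq table with coordinates and exon lengths from the GENCODE M1 annotation of NCBIM37, which is mm9. Total counts ranged from 11437058 to 25523148, and this number limits the precision of low genes such as Abcg1. Fits used edgeR 4.0.16 in R 4.3.3 with TMM, filterByExpr at a minimum count of 10, and its quasi-likelihood test with Benjamini-Hochberg adjustment at 0.05 over all genes tested. The 6 knockdown libraries and the 9 rescue libraries had separate fits, and 2 comparisons across sets used a fit of all 15. The method was tested on simulated data, with planted changes larger than those of Lpcat3 and Scarb1 in the rescue set. The planted genes had more counts than Abcg1, so changes as small or genes as low as these were not covered. Replicates differed by more than sampling noise (chi-square per degree of freedom 2.07 to 5.45). The members and lists were chosen with earlier results of these data known. Named genes were the 8 members, Kdm3a, the 3 genes nearest in pattern to each member (root mean square difference of log2 CPM, prior count 2), and in each list the up to 3 called genes with the largest change on knockdown, those called in all 3 directions or their opposites, and, as names only, those that did not pass the filter. Receptor ratios were tested with exact permutation tests (scipy 1.17.1). Alternatives were RLE size factors, DESeq2 1.42.0, other filters, other fits, a replicate block, thinning and leaving out each library. Results for some genes of these lists are not reported here.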

Additional observations from a re-analysis of the deposited data

How the results depend on the processing

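Of 737 values of single members under the alternatives, 698 kept their direction and their side of the threshold, 12 lost a call, 2 gained one and 25, none of them a call, changed sign. Of the lost calls, 11 came from leaving out 1 library and 1 from DESeq2 (Scarb1 with JMJD1A(WT) against LacZ, adjusted p = 0.0571). The members called higher with JMJD1A(WT) against LacZ ranged from 3 to 5 when a library was left out, with 3 without LacZ replicate 1, LacZ replicate 3 or JMJD1A(WT) replicate 2. For the mutant against JMJD1A(WT) they ranged from 0 to 1, with 1 without JMJD1A(WT) replicate 3, and for JMJD1A(WT) against sh-Empty from 1 to 2, with 1 without sh-Empty replicate 1 or JMJD1A(WT) replicate 1. Over all genes, the mutant against LacZ gave from 326 to 497 lower and from 348 to 549 higher genes, with 326 and 348 without mutant replicate 1 and 380 higher without LacZ replicate 3, where all libraries gave 560 and 600. Thinning every library to the smallest total turned Nr1h2 and Mylip with JMJD1A(WT) against LacZ to 0.00864 and 0.01826 and Nr1h2 with LacZ against sh-Jmjd1a to -0.01028, on the log2 scale.

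Leaving out 1 library, the log2 fold changes that changed sign ranged from -0.003702 to 0.09053 for Mylip on knockdown. With JMJD1A(WT) against LacZ they ranged from -0.1593 to 0.004767 for Nr1h2, from -0.1169 to 0.5717 for Apoe and from -0.08804 to 0.04723 for Mylip. With the mutant against JMJD1A(WT) the range was -0.1701 to 0.1689 for Apoe and -0.001838 to 0.133 for Mylip, and against LacZ it was -0.1669 to 0.5231 for Apoe and -0.0256 to 0.04271 for Lpcat3. With LacZ against sh-Jmjd1a it was -0.02175 to 0.07362 for Nr1h2, -0.08191 to 0.2248 for Nr1h3, -0.08991 to 0.03375 for Abca1 and -0.6872 to 0.002748 for Apoe. The receptor ratio in that comparison ranged from -0.1349 to 0.1817 on the log2 scale, and the cause of these changes was not tested. Replicate numbers did not pair the libraries, since same-numbered libraries correlated at -0.033 to 0.063, and a replicate block left 6 members lower on knockdown and 5 higher with JMJD1A(WT), and changed no other call among the members. A minimum of 10 counts in every library left Abcg1 out of the rescue and cross-set fits, and fitting only the groups compared left it out of the mutant against LacZ. Of the 24 genes nearest in pattern, 22 were also found with a prior count of 0.5 and 1 with Pearson correlation. Abcg1 had 3 to 110 counts per library and Apoe 31 to 102 per rescue library, which limits the precision of their values.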
